A study of Homo sapiens with 12 samples.

Results

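HOX genes encode the homeodomain transcription factors that set positional identity along the body axis, and in the human genome they sit in clusters named HOXA, HOXB, HOXC and HOXD. Their members were taken by symbol: protein-coding genes named HOXA, HOXB, HOXC or HOXD plus a number, and the antisense RNA genes inside the clusters, such as HOTAIR, HOTTIP and HOXA-AS3. The rule found 57 members, 39 protein-coding and 18 antisense, among 35651 genes in the count tables. HOXA (chr7:27092993-27207259, GRCh38) holds 17 of them, HOXB (chr17:48528526-48728750) 14, HOXC (chr12:53935328-54056030) 14 and HOXD (chr2:176092721-176190907) 12. HOXB1 and HOXB-AS2 had no molecule in any table, and the other 55 members had at least 1 in some library.

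Within a cluster the genes share a direction of transcription, and their order on the chromosome matches the order in which embryonic tissues use them, from the anterior end (low numbers) to the posterior end (high numbers). Genes of the same number in different clusters, called paralogs, descend from a common ancestral gene and have related DNA-binding domains. Cell lines keep a HOX pattern of the tissue and history they come from, held in place by Polycomb repression and Trithorax activation, while TALE proteins such as PBX and MEIS bind DNA together with HOX proteins.

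The libraries came from a study of LAST-seq, a single-cell method that amplifies RNA linearly from single-stranded templates, and each molecule carried a unique molecular identifier (UMI) so that copies could be counted once. HEK293T is a human embryonic kidney line with integrated adenoviral and SV40 sequences. Its cells were profiled by LAST-seq in 2 libraries of 10 cells (replicate 1 with A60 and replicate 2 with ERCC spike-in RNA). CEL-seq2 was run in 2 libraries of 10 cells (replicate 1 with ERCC and A60 and replicate 2 with ERCC). Libraries of 10 wells each were made from 15 pg total RNA by LAST-seq, lysate by LAST-seq and lysate by CEL-seq2. SMART-seq, which gives reads without UMIs, was run on 6 cells and on lysate in libraries of 10 and 16 wells. eHAP1 is a haploid line engineered from HAP1, itself of chronic myeloid leukaemia origin, and was profiled by LAST-seq as wild type (WT, 148 cells) and as an SCC4 knockout (KO, 153 cells), each in 2 batches. SCC4 (gene symbol MAU2) is part of the complex that loads cohesin onto DNA, and cohesin folds chromosomes into loops and domains. The knockout line was edited with Cas9 ribonucleoprotein and grown out from single sorted cells, so clone and genotype cannot be told apart. Live eHAP1 cells were sorted by DNA content as haploid and in G1, and the line is kept haploid after subcloning with 10-Deacetylbaccatin-III, whereas HEK293T cells were sorted only for live cells. Nothing in the labels says that replicates came from separate cultures, and the genotypes have 1 sample each, so calls rest on a rule of size and carry no p-value.

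HEK293T LAST-seq cell libraries held 1424870 and 1509801 UMIs, the other HEK293T libraries with UMIs 798047 to 1554129, and the eHAP1 batches 6434247 to 12301326. A UMI library counts 1 tag per molecule, so levels are given as CPM, the UMIs of a gene scaled to 1000000 UMIs of the library, and need no length scaling. The 10 LAST-seq well barcodes of HEK293T recur in every LAST-seq library of that line and 9 or 10 of them in each eHAP1 batch, as the same primer set was used throughout, so a barcode names a well and not a cell across libraries. The deposited eHAP1 values did not behave as raw counts. Among genes with at least 15 cells below and 15 cells above 2 UMIs, 41.8% to 69.2% had no cell at exactly 2 UMIs. Genes with a mean of at least 8 differed between batches by a median of 0.02 (log2) in WT and in KO, where counting error alone gives 0.04, whereas HEK293T replicates differed by 0.25. The study's methods name a between-batch adjustment, and it was not stated whether these tables precede it, so agreement between the eHAP1 batches of an abundant gene is no independent replication. Low genes still differed between batches: 41.3% of WT genes with a mean of 0.1 to 1 were past 2-fold apart.

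Targeted gene and line markers were checked first. MAU2 was at 4.47 and 6.76 UMIs per cell in WT batches 1 and 2 and at 0.766 and 2.22 in the KO batches, a KO to WT ratio of 0.207 and 0.351 in CPM. Of 6 HEK293T-line markers fixed as a list, the summed level was 168 and 135 CPM in the HEK293T libraries, 66.8 and 67.4 in WT, and 104 and 96.9 in KO. NEFL, a neurofilament subunit, was higher in HEK293T than in WT, but PAX2, a kidney regulator, was lower in HEK293T, with 0 and 2 UMIs there. Of 8 blood-lineage markers, PTPRC, GATA1, HBG1 and SPI1 were at 0 UMIs in all 4 eHAP1 batches, and the summed level was 4.15 to 11.3 CPM there and 14.04 and 19.9 in HEK293T. CD34 and LMO2 had 0 UMIs in WT, with 7 and 11 and 1 and 1 in KO, while ITGA2B had 52 and 49 UMIs and TAL1 31 and 2 in WT. The line labelled eHAP1 thus held 2 of the 8 markers above 0 in WT and 4 of them in KO, all low.

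HOX molecules were a small share of each line and spread differently over the clusters. The eHAP1 batches are deeper than the HEK293T libraries, so levels of the lines are set side by side in CPM. They made up 741 and 880.2 CPM in HEK293T, 575 and 563 in WT eHAP1, and 495 and 506 in KO. Counting a member as expressed from 0.1 UMI per well upwards on average, below which the study left genes out of its expression test of the knockout, 42 and 40 members were expressed in HEK293T replicates 1 and 2, 27 and 30 in WT batches 1 and 2, and 29 and 31 in KO batches 1 and 2. Over all genes the same limit gave 16104 and 16602 in HEK293T and 14981 and 15334 in WT. In a library of 10 wells that limit is met by 1 UMI, whereas an eHAP1 batch needs several, so the numbers of expressed members in the lines are not compared. HEK293T used all clusters: HOXA gave 35.8% and 32.7% of HOX UMIs, HOXD 31.4% and 21.7%, HOXB 16.6% and 30.9%, and HOXC 16.2% and 14.8%. In WT eHAP1, HOXC gave 52.2% and 55.7%, HOXA 30.4% and 27.1%, HOXB 13.1% and 13.8%, and HOXD 4.37% and 3.38%. HOXC8 alone was 87.7% of the HOXC molecules in each WT batch, and HOXD13 was 61.1% and 57.3% of the HOXD molecules in HEK293T.

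**Figure D1:**
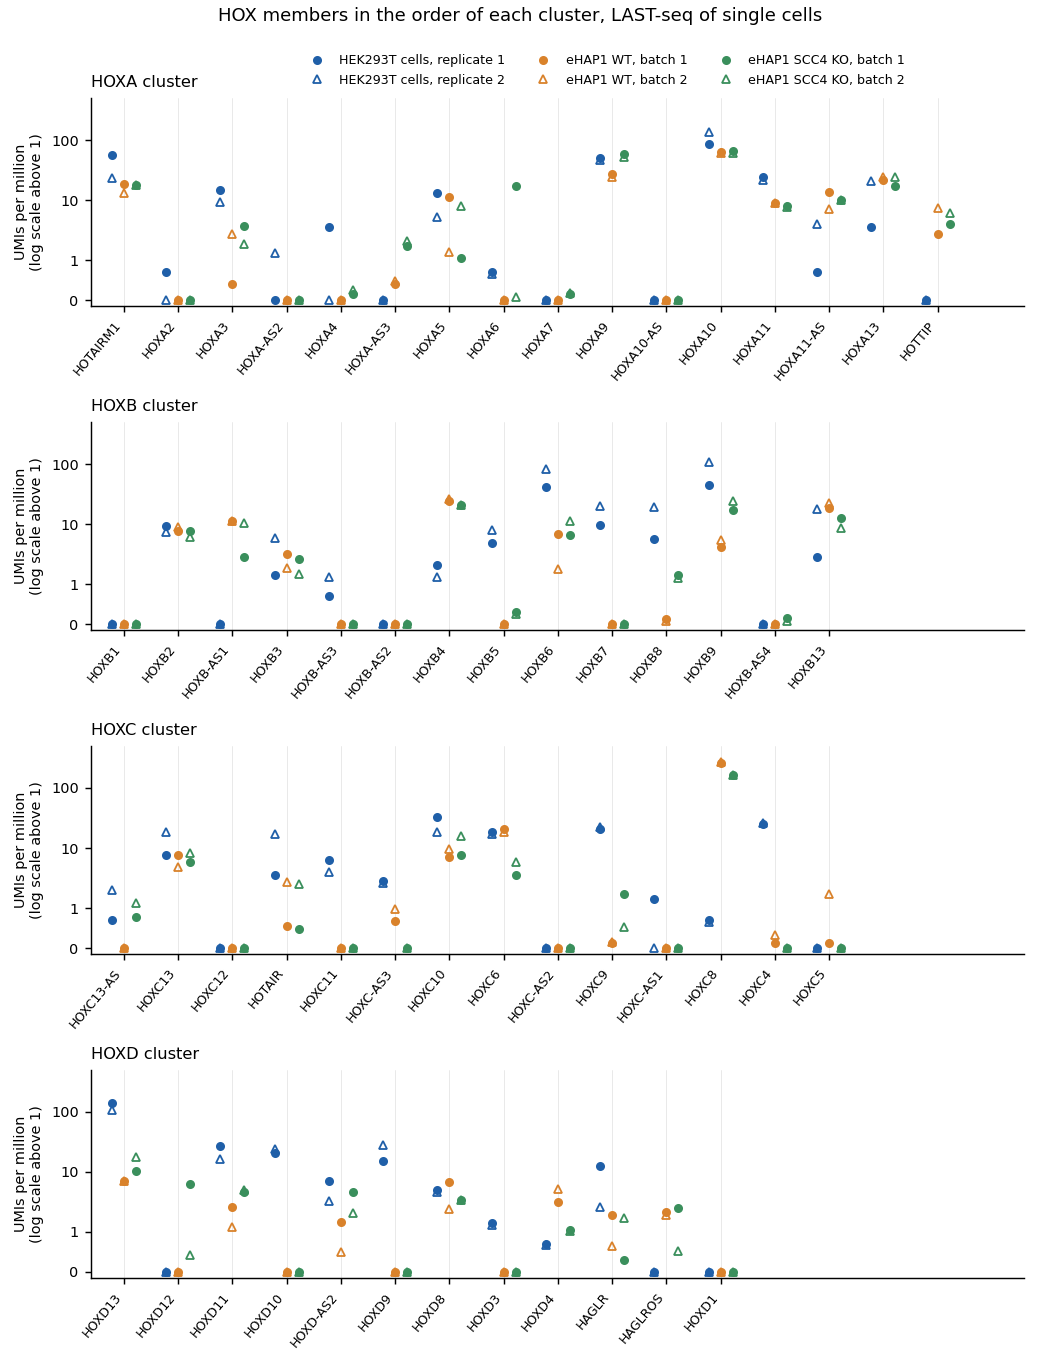
Level of HOX members (CPM, UMIs scaled to the library total) in chromosomal order along HOXA, HOXB, HOXC and HOXD, with points for HEK293T replicates 1 and 2 and for batches 1 and 2 of eHAP1 WT and SCC4 KO. HOXC8 stands at 263 and 275 in WT and below 1 in HEK293T, while HOXD13 stands at 142.5 and 109 in HEK293T and near 7 in WT.

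Of the HOXC genes, HOXC8, which patterns brachial and thoracic levels, was the most abundant HOX transcript of eHAP1. Its values in WT cells ran from 1 to 83 UMIs with a median of 24 in batch 1, and from 7 to 280 with a median of 38 in batch 2, and every WT cell had at least 1. It ranked 476 of 21138 detected genes in WT batch 1 and 455 of 21282 in batch 2. In HEK293T by LAST-seq it had 1 UMI in each library, in 1 cell of 10. Its chromosomal neighbours did not follow it. HOXC9, next to HOXC8 on the posterior side, was at 21.1 and 22.5 CPM in HEK293T (30 and 34 UMIs) and had 1 and 2 UMIs in WT. HOXC4, on its anterior side, was at 25.3 and 26.5 CPM in HEK293T (36 and 40 UMIs) and had 1 and 4 UMIs in WT. HOXC6 was at a like level in both lines, 18.2 and 17.2 CPM in HEK293T and 20.5 and 18.2 in WT. Of the posterior members, HOXC10 was at 32.3 and 18.5 CPM in HEK293T and 7.06 and 9.51 in WT, and HOXC13, a gene of hair and nail, at 7.72 and 18.5 against 7.73 and 4.88. HOXC4, HOXC5 and HOXC6 share annotated sequence, as do HOXC6 and HOXC9, so reads may have been split among them by the counting.

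HOXD13, the gene at the posterior end that patterns digits and the urogenital tract, had 10 to 33 UMIs per HEK293T cell with a median of 18.5 in replicate 1, and 10 to 24 with a median of 16 in replicate 2. It ranked 1062 of 16104 and 1472 of 16602 detected genes there. Its level was 142.5 and 109 CPM in HEK293T and 7.06 and 7.15 in WT, where the highest cell had 7 UMIs. HOXD10 was at 21.1 and 23.8 CPM in HEK293T and HOXD9 at 15.4 and 28.5, and both were at 0 in all 148 WT cells, which allows a share of up to 2.03% of cells with a UMI. HOXD11 was present in both lines, at 27.4 and 16.6 CPM in HEK293T and 2.58 and 1.22 in WT. At the anterior end HOXD1 had no UMI in these HEK293T libraries or in WT, HOXD3 had 2 UMIs in each HEK293T library and 0 in WT, and HOXD4 had 1 UMI in each HEK293T library and 3.12 and 5.12 CPM in WT.

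In HOXA the leading gene was the same in both lines, HOXA10, as HOXD13 was in HOXD. HOXA10, which patterns the uterus and the lumbar region and acts in blood progenitors, had 2 to 16 UMIs per HEK293T cell (median 15) in replicate 1 and 13 to 30 (median 19.5) in replicate 2, and medians of 6 and 9 in WT batches of 0 to 21 and 1 to 54 UMIs. Its level was 85.6 and 135 CPM in HEK293T and 63.9 and 61.9 in WT. HOXA9, a regulator of haematopoietic stem cells, had 50.5 and 46.4 CPM in HEK293T and 27.3 and 24.3 in WT. HOTAIRM1, an antisense gene at the anterior end, was at 55.4 and 23.2 CPM in HEK293T and 18.6 and 13.1 in WT, and HOXA11 at 24.6 and 21.9 against 9.09 and 8.86. HOXA13 differed between the HEK293T libraries, at 3.51 and 20.5 CPM, and was at 21.98 and 24.1 in WT. HOXA11-AS, on the opposite strand of HOXA11, was at 0.702 and 3.97 CPM in HEK293T and 13.6 and 7.15 in WT. HOXA3, toward the anterior end, was at 14.7 and 9.27 CPM in HEK293T and 0.407 and 2.68 in WT. HOXA5 was uneven in WT, at 11.1 CPM in batch 1 (82 UMIs) and 1.38 in batch 2 (17 UMIs), and 43 of the 73 batch 1 cells held exactly 1 UMI. HOXA2, HOXA4, HOXA6 and HOXA7 were at 0 UMIs in WT.

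HOXB genes from HOXB9 to HOXB5 had higher levels in HEK293T, and HOXB4 and HOXB-AS1 in WT. HOXB9 was at 44.2 and 109 CPM in HEK293T and 4.07 and 5.53 in WT, and HOXB6 at 42.1 and 82.8 against 6.78 and 1.79. HOXB7, between HOXB8 and HOXB6, was at 9.83 and 19.9 CPM in HEK293T, and HOXB5 at 4.91 and 7.95, and neither had a UMI in WT. HOXB4, a gene known for expanding blood stem cells, was at 2.11 and 1.32 CPM in HEK293T (3 and 2 UMIs) and 24.2 and 25.9 in WT. HOXB-AS1, antisense at the HOXB2 end, had 0 UMIs in HEK293T single cells by LAST-seq and 11.3 and 11.4 CPM in WT. HOXB2 itself was at a like level in both lines, 9.12 and 7.29 CPM in HEK293T and 7.60 and 8.78 in WT. HOXB3 was at 1.404 and 5.96 CPM in HEK293T and 3.12 and 1.87 in WT. HOXB13, far from the rest of the cluster and best known in the prostate, was at 2.81 and 17.9 CPM in HEK293T and 18.2 and 22.3 in WT.

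In all, 25 members reached 1 UMI per well on average in both HEK293T LAST-seq libraries or in both WT batches, 22 were lower but reached 0.1 in some of these libraries, and 10 stayed under 0.1 in all of them. The highest of the 22 in each cluster were HOXA5 in HOXA (13.3 and 5.30 CPM in HEK293T), HOXB8 in HOXB (5.62 and 19.2, with 1 UMI in each WT batch), HOTAIR in HOXC (3.51 and 17.2, against 0.543 and 2.68 in WT) and HAGLR in HOXD (12.6 and 2.65, against 1.90 and 0.650). HOTAIR, an antisense RNA of the HOXC cluster with a proposed action on HOXD, differed between replicates and between batches. The 10 lowest were HOXA-AS3, HOXA7, HOXA10-AS, HOXB1, HOXB-AS2, HOXB-AS4, HOXC12, HOXC-AS2, HOXD12 and HOXD1. The strand setting of the counting was not given in the sources used here, so an antisense gene and the coding gene it overlaps (HOXA11 and HOXA11-AS, HOTTIP and HOXA13, HOXB-AS1 and HOXB2, HOXC10 and HOXC-AS3, HOXD9 and HOXD-AS2) cannot be told apart where their exons meet.

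HEK293T against WT eHAP1 asks how far the HOX patterns of these lines differ under the same assay. HOXD13, HOXD10, HOXD9, HOXC9, HOXC4, HOXB9, HOXB7 and HOXB6 were higher in HEK293T, and HOXC8 and HOXB4 were lower. A member was called when it was past 2-fold in the same direction in all 4 pairings of a HEK293T library with a WT batch, with 0.5 UMI added to each sum. Of 46 members tested, 24 were called higher in HEK293T, where the background over all 18043 genes tested was 17.2%, and 6 were called lower, where it was 12.4%. Their median difference was 2.39 (log2) against 0.18 for all genes. These counts lean to HEK293T by construction, since 15 of the 46 passed the filter on low values through HEK293T alone and 4 through WT alone, and adding 0.5 UMI to libraries of unequal depth puts a gene without molecules 2.29 to 3.11 (log2) higher in HEK293T. With the added value scaled to each library's total, an alternative chosen after seeing the data, 20 members were called higher and 6 lower, beside 11.8% and 14.2% of all genes, and the median was 1.47 against 0.08. With a filter at an average of 1 UMI per well, 13 were higher and 3 lower. By cluster, with 0.5 UMI added throughout, 6 of 13 HOXA members were higher and 1 lower, 6 and 2 of 11 in HOXB, 6 and 1 of 12 in HOXC, and 6 and 2 of 10 in HOXD. With WT batches taken as replicates, which their evened values do not allow, edgeR's quasi-likelihood test called 12 members higher and 4 lower (backgrounds 9.45% and 12.9%), and DESeq2 called 13 and 4 (11.3% and 12.6%). Line, sort gate, number of wells and depth per library differed together and cannot be told apart, and a level is relative to all RNA of its library.

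HOXD13 was higher in HEK293T by 4.13 (log2, lowest to highest pairing 3.93 to 4.33), HOXD11 by 3.57, HOXB9 by 3.86 and HOXB6 by 4.07 (2.63 to 5.51). HOXC4 was higher by 6.59 (6.13 to 7.04). HOXC9, with 3 WT molecules in all, had a ratio of 143 with a counting interval of 46.8 to 712, and HOXB8, with 2, a ratio of 124 with an interval of 32.0 to 1062. Against a floor of 3 UMIs over all 148 WT cells, HOXD10 was at least 147.5-fold higher in HEK293T, HOXD9 at least 145-fold, HOXB7 at least 98.3-fold, HOXB5 at least 42.5-fold and HOXC11 at least 33.5-fold. These 5 genes had no molecule in WT eHAP1. HOXA3 (3.40), HOXA11 (1.38, 1.28 to 1.49), HOXD-AS2 (2.51) and HOXC-AS3 (1.82) were also called. A group of 7 others called higher, HOXA4, HOXA6, HOXA-AS2, HOXB-AS3, HOXC13-AS, HOXC-AS1 and HOXD3, rested on 2 to 5 HEK293T UMIs against none.

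HOXC8 was lower in HEK293T by -8.04 (log2, -8.11 to -7.97). With 2 HEK293T molecules in all, its ratio of 0.00252 had a counting interval of 0.000305 to 0.0091. HOXC8 was seen in the same line in other libraries. The 10 wells of 15 pg HEK293T RNA held 9 UMIs by LAST-seq, 8.12 CPM, and the LAST-seq lysate none. CEL-seq2 found 47 and 49 UMIs in its 2 HEK293T libraries, 30.2 and 33.7 CPM. SMART-seq, which counts reads without UMIs, gave 10, 20 and 24 reads in its 3 libraries. HOXB4 was lower by -3.64 (-3.97 to -3.30) and HOXD4 by -1.99. HOXB-AS1 was at least 11.1-fold lower, HOTTIP, the antisense gene at the HOXA13 end, at least 5.47-fold lower and HAGLROS at least 1.99-fold lower, each with 0 UMIs in 20 HEK293T cells by LAST-seq. Members that did not pass included HOXA9 (0.92, 0.77 to 1.06), HOXA10 (0.78, 0.43 to 1.13), HOXC6 (-0.10), HOXB2 (0.05), HOXA13 (-1.36, -2.65 to -0.08), HOXA11-AS (-2.22, -3.70 to -0.74) and HOTAIR (2.67, 0.50 to 4.85).

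**Figure D2:**
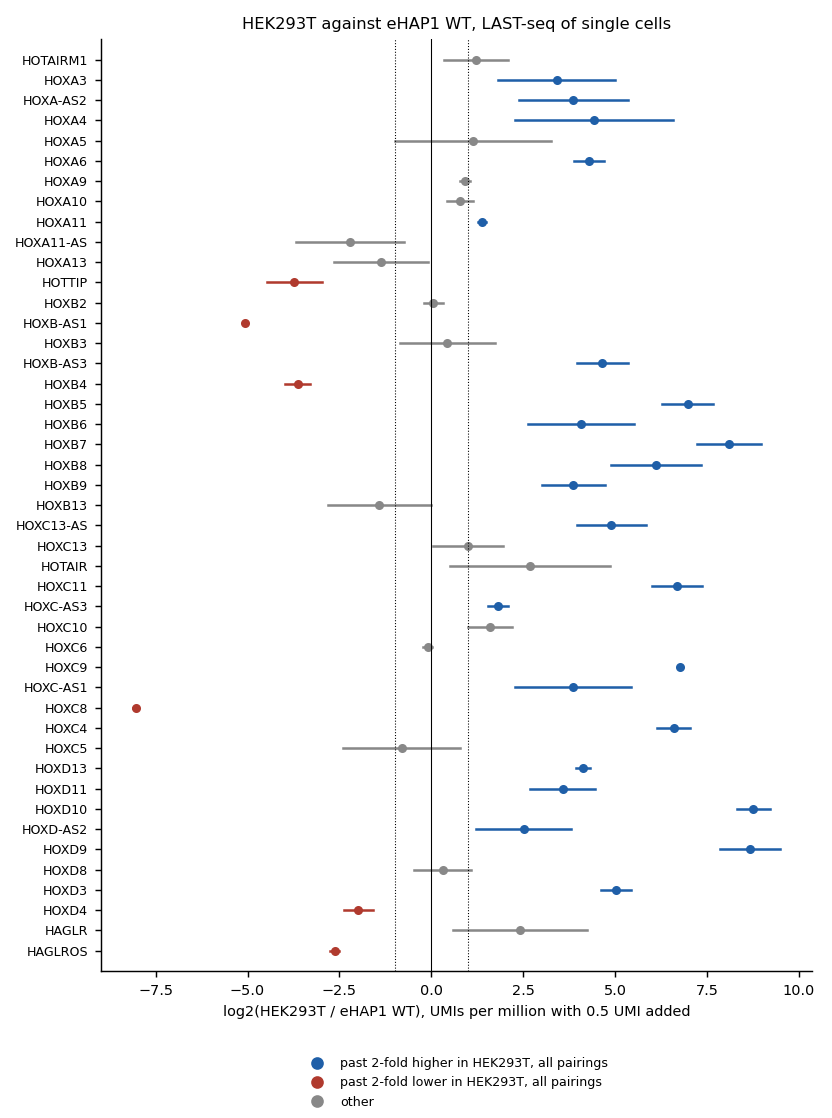
Mean log2 difference of HEK293T from eHAP1 WT (CPM, 0.5 UMI added) for members tested, in cluster order, with lines from the lowest to the highest of the 4 library and batch pairings. Members called higher lie to the positive side past 2-fold, and HOXC8 at -8.04 lies farthest to the negative side, with HOXB4 at -3.64.

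HOX cofactors, upstream regulators and genes flanking the clusters were called in both directions. The background over all genes tested was 17.2% higher and 12.4% lower in HEK293T. Of 9 TALE cofactors tested, 1 was called higher in HEK293T, PBX4 (3.31), and 2 were called lower, among them MEIS3 (-3.98). Of 14 regulators upstream of HOX, BMI1, a Polycomb subunit, was higher (1.99), as was RARB with 3 UMIs against 0, while KMT2A, the Trithorax-type methyltransferase, CBX2 and the ligand GDF11 were lower (-1.18, -1.49 and -2.04). EZH2 (-0.01) and SUZ12 (-0.08), core subunits of the Polycomb complex that methylates histone H3, did not differ by 2-fold. Of 12 genes flanking the clusters, SKAP1, CALCOCO2 and HNRNPA1 were higher (4.03, 1.48 and 1.65) and CBX5 was lower (-1.25).

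Promoter sequence was set beside members with contrasting patterns. HOXD13 and HOXD10 were higher in HEK293T, and HOXA9 was present in both lines and higher in KO. HOTTIP and HOXB-AS1 had no UMI in HEK293T single cells by LAST-seq. HOXB-AS1 did have UMIs in 1 well of 15 pg RNA and 2 wells of lysate by LAST-seq. Sequences are from RefSeq on GRCh38.p14, which held 31 of the 57 member symbols in 42 windows, and give the 250 bases before the annotated start on the gene's own strand. Capitals mark CCAAT or its reverse ATTGG, and TATAAA or its reverse TTTATA. Positions are chr2:176092471-176092720 on the plus strand for HOXD13, chr2:176116528-176116777 plus for HOXD10, chr7:27165538-27165787 minus for HOXA9, chr7:27200171-27200420 plus for HOTTIP and chr17:48544101-48544350 plus for HOXB-AS1, none of which overlapped an annotated exon.
HOXD13: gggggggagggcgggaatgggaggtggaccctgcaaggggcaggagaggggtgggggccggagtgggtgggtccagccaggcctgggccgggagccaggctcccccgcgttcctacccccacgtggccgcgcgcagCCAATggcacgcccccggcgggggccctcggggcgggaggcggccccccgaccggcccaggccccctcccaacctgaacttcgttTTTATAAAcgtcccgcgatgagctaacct
HOXD10: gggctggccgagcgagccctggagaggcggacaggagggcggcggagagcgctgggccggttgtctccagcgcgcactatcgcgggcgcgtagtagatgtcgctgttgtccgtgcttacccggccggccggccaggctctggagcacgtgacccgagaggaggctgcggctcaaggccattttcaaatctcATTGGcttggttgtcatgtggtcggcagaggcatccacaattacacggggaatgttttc
HOXA9: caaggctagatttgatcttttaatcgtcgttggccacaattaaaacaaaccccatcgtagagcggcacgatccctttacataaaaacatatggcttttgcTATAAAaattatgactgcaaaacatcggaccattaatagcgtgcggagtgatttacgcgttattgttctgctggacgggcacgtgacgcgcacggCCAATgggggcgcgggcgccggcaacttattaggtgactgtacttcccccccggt
HOTTIP: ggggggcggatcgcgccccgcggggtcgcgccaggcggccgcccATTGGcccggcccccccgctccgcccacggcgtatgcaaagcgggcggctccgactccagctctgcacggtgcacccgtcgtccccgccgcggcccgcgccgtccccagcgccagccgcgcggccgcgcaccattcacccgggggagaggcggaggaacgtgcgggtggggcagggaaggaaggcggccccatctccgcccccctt
HOXB-AS1: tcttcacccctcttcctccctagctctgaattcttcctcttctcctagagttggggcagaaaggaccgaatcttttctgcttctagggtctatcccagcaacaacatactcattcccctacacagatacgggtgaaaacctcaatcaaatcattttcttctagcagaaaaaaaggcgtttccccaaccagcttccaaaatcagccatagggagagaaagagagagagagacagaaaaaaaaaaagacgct
HOXD13 had a TATAAA 27 bases before its start, where it overlaps TTTATA on the other strand, and a CCAAT 114 bases before it. HOXA9 had CCAAT at 55 and TATAAA at 150 bases, HOXD10 an ATTGG at 59 and HOTTIP an ATTGG at 206, and HOXB-AS1 had neither motif. HOTTIP held 38 CG dinucleotides, HOXD10 23, HOXD13 21, HOXA9 20 and HOXB-AS1 4. Of the 42 member windows 59.5% held CCAAT on either strand and 14.3% TATAAA, beside 32.0% and 10.7% of all 35116 promoter windows, and their median CG count was 17 beside 11. The windows of HOXD10, HOXA9, HOTTIP and HOXB-AS1 lay inside the annotated gene of the same name, that of HOXB-AS1 also inside HOXB2. Some annotated transcripts of these genes thus start before the window. The HOTTIP window also overlapped that of HOXA13 (chr7:27200092-27200341, minus strand), a gene present in both lines. These letters are a description of the windows and not evidence of binding.

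Loss of SCC4 asks whether HOX expression changes when cohesin loading is reduced. In KO cells HOXA9 and HOXB9 were higher than in WT and HOXC6 was lower, by more than 2-fold in each batch, while HOXA10, HOXA11, HOXB4 and HOXA13 stayed within 2-fold, and HOXC8 was lower by less than 2-fold. Members were called when past 2-fold in the same direction in each batch. Of 37 tested, 9 were called higher, where the background over all 16668 genes tested was 7.28%, and 4 were called lower, where it was 7.07%. Their median difference was 0.00 (log2) against 0.05 for all genes. By construction the counts lean to KO. Of the 37, 6 passed the filter on low values through KO alone and 2 through WT alone. With batches taken as replicates, edgeR called 5 members higher and 3 lower (backgrounds 12.4% and 15.4%), DESeq2 3 and 6 (12.7% and 15.6%), and edgeR with batch as a block 6 and 5 (14.4% and 18.3%). The comparison shares its WT cells with the one against HEK293T, so their calls are given apart.

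HOXA9 had medians of 2 and 4 UMIs per cell in WT batches 1 and 2 and of 4 and 7 in KO, with totals of 201 and 299 against 379 and 620, and the cells of the genotypes overlapped. Its KO to WT ratio of CPM was 2.16 in batch 1 and 2.18 in batch 2. The counting intervals of 1.82 to 2.58 and 1.90 to 2.52 both reached below 2-fold. HOXB9 had 30 and 68 UMIs in WT and 110 and 279 in KO, ratios of 4.20 and 4.32, with medians of 0 and 1 UMIs per cell in WT and 1 and 3 in KO. HOXB9 in KO batch 1 and HOXA9 in WT batch 2 were among the genes with no cell at exactly 2 UMIs. HOXC6 had 151 and 224 UMIs in WT and 23 and 67 in KO, ratios of 0.175 and 0.315, and its median cell went from 2 and 3 UMIs in WT to 0 in both KO batches. HOXC8 fell short of the rule, with ratios of 0.625 and 0.589 and medians of 24 and 38 UMIs in WT against 13 and 23 in KO. As HOXC8 was most of the cluster, the HOXC share of HOX molecules was 37.3% and 38.7% in KO against 52.2% and 55.7% in WT, and the HOXA share was 41.4% and 38.3% against 30.4% and 27.1%.

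**Figure D3:**
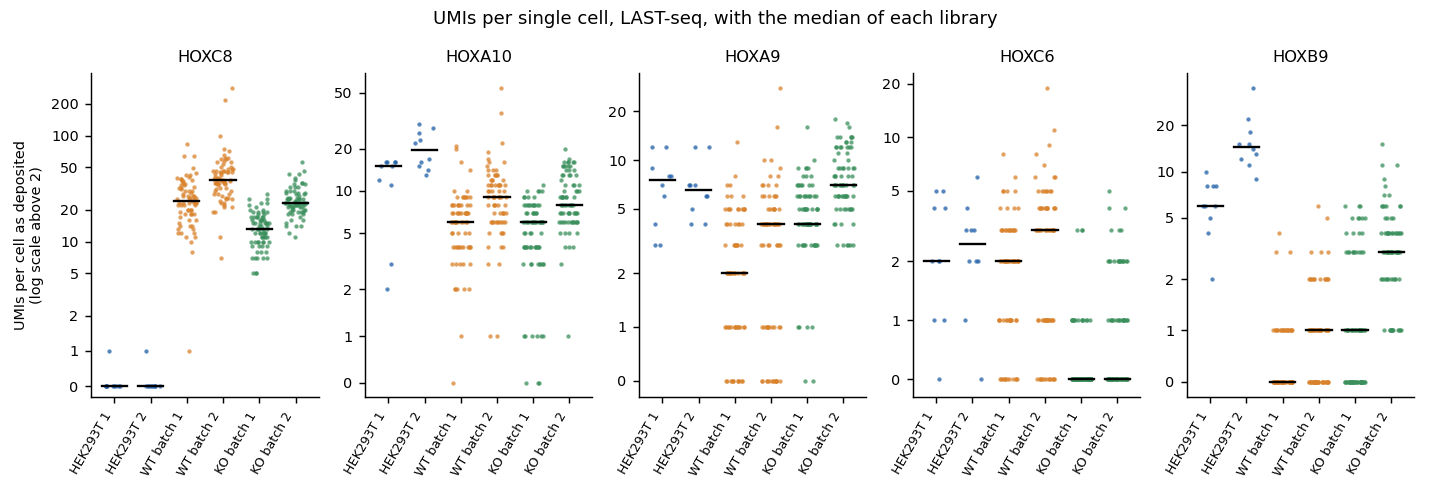
UMIs per cell of HOXC8, HOXA10, HOXA9, HOXC6 and HOXB9 in HEK293T replicates 1 and 2 and in batches 1 and 2 of eHAP1 WT and SCC4 KO, with 1 point per cell and a line at each median. HOXC8 medians are 24 and 38 in WT, 13 and 23 in KO and 0 in HEK293T, whereas HOXA10 medians are 6 and 9 in WT and 6 and 8 in KO.

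Most other calls rested on few molecules. Called higher were HOXB8 (9 and 15 UMIs in KO against 1 and 1), HOXC9 (11 and 6 against 1 and 2), HOXA-AS3 (11 and 24 against 3 and 6), HOXD-AS2 (30 and 24 against 11 and 6), HOXC13-AS (5 and 14 against none), HOXD12 (41 and 5 against none) and HOXA6 (109 and 1 against none). HOXB8 had KO to WT ratios of 10.3 and 15.8 with counting intervals of 1.43 to 452 and 2.43 to 665. HOXA6 in KO batch 1 was at exactly 1 UMI in 73 of 77 cells, at 2 in 3 cells and at 30 in 1, a spread far narrower than counting would give (variance 0.0370 of the mean without the highest cell). Taking 1 UMI off every well of each gene, an alternative chosen after this pattern was seen, left 3 members higher, 2 of them among the 9. Called lower beside HOXC6 were HOXD4 (7 and 12 UMIs against 23 and 63), HOXC-AS3 (none against 5 and 12) and HOXC5 (none against 1 and 21).

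Among abundant members within 2-fold, HOXA10 had KO to WT ratios of 1.02 and 0.981, HOXA11 0.872 and 0.870, HOXB4 0.869 and 0.806, and HOXA13 0.785 and 1.02. The antisense genes HOTAIRM1 and HOXA11-AS differed from WT by a mean of 0.18 and 0.02 (log2). HOXB13 was at 0.692 and 0.388, past 2-fold in batch 2 alone, and HOXD13 was at 1.45 and 2.47. Low members often moved in 1 batch or in opposite directions: HOXA5 had ratios of 0.0978 and 5.76, HOXA3 9.16 and 0.702, HAGLR 0.164 and 2.63, HOXB6 0.962 and 6.32, and HOXB-AS1 0.248 and 0.918. Between the batches of a single genotype, 11 of 37 members in WT and 10 of 37 in KO were past 2-fold apart, beside 19.9% and 17% of all genes, so a ratio seen in 1 batch is within what batches alone show.

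**Figure D4:**
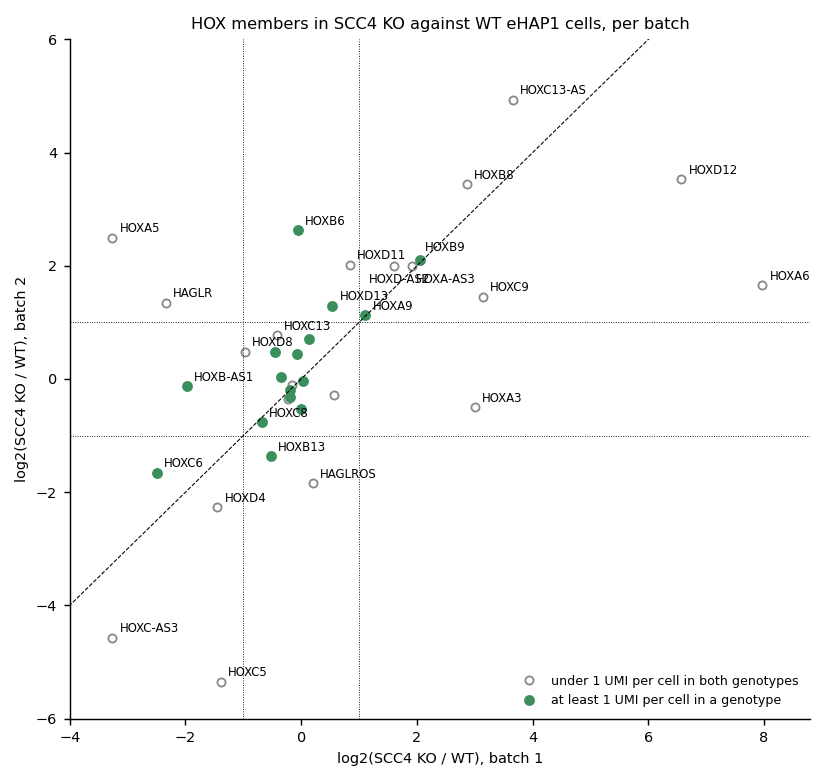
Log2 ratio of SCC4 KO to WT in batch 1 (horizontal axis) and batch 2 (vertical axis) for members tested, with filled points for members of at least 1 UMI per cell in either genotype. HOXB9 and HOXA9 lie past 2-fold up and HOXC6 past 2-fold down in both batches, while HOXA5 lies down in batch 1 and up in batch 2.

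Some HEK293T-line markers were also higher in KO: NEFL had 51 and 169 UMIs and NEFM 6 and 9 where WT had none, and LHX1 was higher by 1.35 (log2). CD34, of the blood list, had 7 and 11 UMIs in KO against none. Of the HOX members higher in HEK293T, HOXD10, HOXD9, HOXB7, HOXC11 and HOXC4 had 0 UMIs in KO and HOXB5 2 and 3. Others went the other way: HOXB9, HOXB8, HOXC9, HOXD-AS2, HOXA6 and HOXC13-AS were called higher in KO as well. Members called higher in both comparisons are named but not counted as a result. Both divide by the same WT values, so a member low in WT leans to both calls. What part the line markers have in the KO values was not tested. None of 9 TALE cofactors or 13 upstream regulators was called in KO, where EZH2 differed by 0.10 and CTCF by 0.07 (log2). Of 12 flanking genes, HNRNPA1 beside HOXC was higher by 1.10. PRAC2, between HOXB9 and HOXB13, had 0 UMIs in KO against 76 in WT batch 1 and 2 in WT batch 2, so its difference rests on batch 1.

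LAST-seq and CEL-seq2 were compared on HEK293T cells to see how far the HOX pattern depends on the assay. HOXD13 and HOXB8 were higher by LAST-seq, and HOXA5, HOXA6, HOXC8 and several antisense genes were higher by CEL-seq2, while HOXA10 was alike. Of 50 members tested, 2 were called higher in LAST-seq, where the background was 4.06%, and 11 lower, where it was 26.8%, and the median was -0.75 (log2) against -0.91 for all genes. With 2 libraries on each side, edgeR's quasi-likelihood test with Benjamini-Hochberg adjustment called 4 members higher and 5 lower (backgrounds 5.57% and 7.52%), and DESeq2 called 2 and 4 (6.68% and 8.11%). HOXD13 had 203 and 165 UMIs by LAST-seq and 67 and 60 by CEL-seq2, a difference of 1.56 (1.34 to 1.78), and HOXB8 differed by 2.21. HOXA5 had 19 and 8 UMIs against 464 and 146 (-4.30, -5.73 to -2.88), HOXA6 1 and 1 against 139 and 28, and HOXC8 1 and 1 against 47 and 49 (-4.98). Of the 11 lower, 4 were among 34 protein-coding members tested and 7 among 16 antisense genes. These 7 were HOXA-AS2, HOXA-AS3 (0 against 34 and 22), HOXA10-AS, HOTTIP, HOXB-AS1 (0 against 5 and 5), HOXB-AS4 and HOXC-AS2, the last with 1 and 1 UMIs by CEL-seq2. The filter on low values was passed by 8 members through CEL-seq2 alone and by 0 through LAST-seq alone. The count of lower members therefore leans to CEL-seq2 by construction. The share called lower among all antisense or noncoding genes was not taken. Whether the share of HOX antisense genes differs from theirs was not tested. The remaining coding gene called lower was HOXB3 (-2.55). HOXA10 differed by -0.03, HOXD10 by -0.78 and HOXC9 by -0.91, none called.

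**Figure D5:**
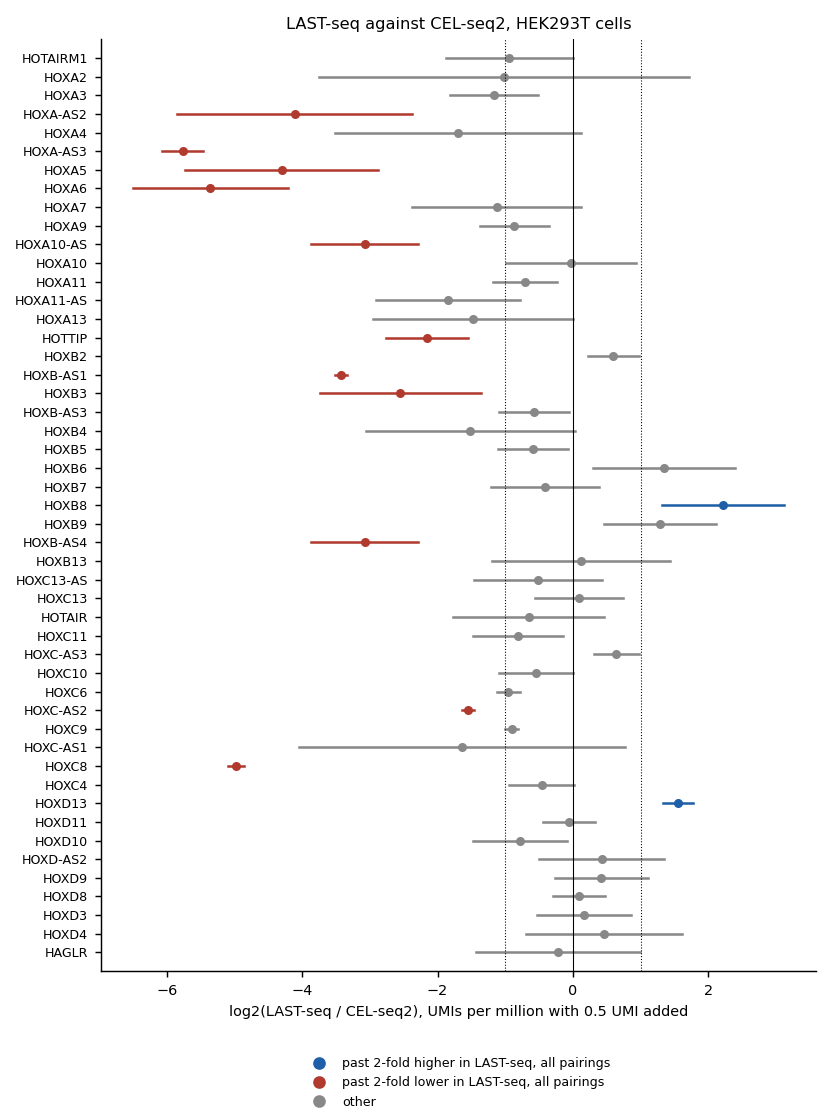
Mean log2 difference of LAST-seq from CEL-seq2 in HEK293T cells for members tested, with lines from the lowest to the highest of the 4 pairings of libraries. HOXA5 at -4.30, HOXA6 at -5.36 and HOXC8 at -4.98 are far to the CEL-seq2 side, and HOXD13 at 1.56 and HOXB8 at 2.21 are on the LAST-seq side.

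Across inputs by LAST-seq, the 10 wells of 15 pg HEK293T RNA held HOX molecules at 1240 CPM and the lysate 570.1. HOXC10, a lumbar-level gene, accounted for much of the former, with 489 UMIs and 41 to 62 in each RNA well, against 46 and 28 UMIs in the cell libraries and 27 in the lysate. HOXD13 went the other way, with 44 UMIs in the RNA wells and 39 in the lysate. These inputs have 1 library each, so the values carry no replicate check.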

How the data were processed

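Members and gene lists were chosen with earlier results of these data known. Per the labels and the study's methods, the authors demultiplexed with bcl2fastq 2.20 and counted UMIs per gene with zUMIs on GRCh38 and GENCODE v33, leaving out wells with few exon reads. HEK293T tables are deposited UMI counts per gene and well. The deposited eHAP1 values are whole numbers that do not behave as raw counts, so they were handled as a score and their counting intervals cover counting error only. The planned comparisons had assumed counts for them, and edgeR and DESeq2 were run only as alternatives. SMART-seq read counts entered no comparison.

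Values were summed over wells, 0.5 UMI was added, and sums were divided by the library total. Genes averaging 0.1 UMI per well or more in either group were tested, and calls needed 2-fold in all pairings. Libraries held 798047 to 12301326 UMIs, so 3 UMIs stand for 0.244 to 3.76 CPM. No doublet caller was run on these sorted wells. Members averaging 1 UMI per well or more in both libraries of a line, and those called in KO, are named, others by counts and the highest of each cluster. Some genes that enter the counts and sums are not reported here by name or drawn. Gene positions are from GENCODE v44, which matched 99.5% of gene identifiers. Alternatives were another scaling, pseudocount, low-value filter, fold limit or well set, thinning of wells, and leaving out each library. Steps used Python 3.11.15, numpy 2.4.6, pandas 2.3.3, scipy 1.17.1, matplotlib 3.10.9, R 4.3.3, edgeR 4.0.16 and DESeq2 1.42.0, and the count models were tested on simulated data.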

Additional observations from a re-analysis of the deposited data

How the results depend on the processing

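No called value of a named member changed sign under the alternatives tried. Values of named members moved by less than the spread between libraries in 1323 cases of a member and a setting, and by more in 241. With a filter at an average of 1 UMI per well, 13 members were higher and 3 lower in HEK293T than in WT, 2 higher and 1 lower in KO, and 6 lower in LAST-seq than in CEL-seq2. With edgeR's quasi-likelihood test, 12 were higher in HEK293T, 5 higher in KO, and 4 higher and 5 lower in LAST-seq. With DESeq2, 13 were higher in HEK293T, 3 higher in KO and 4 lower in LAST-seq. These models take eHAP1 batches as replicates, which the evened values do not allow, so their p-values are not read. With 0.5 UMI scaled to each library's total, chosen after seeing the data, 20 were higher and 6 lower in HEK293T. With 1 UMI taken off every well, chosen after seeing the data, 3 were higher in KO and 1 higher in LAST-seq. Without the highest well of each gene, 2 were lower in KO and 6 lower in LAST-seq. Leaving out each library in turn gave 2 to 5 members higher and 15 to 18 lower in LAST-seq, with 5 higher without LAST-seq replicate 1 and 18 lower without CEL-seq2 replicate 2, and 6 lower in KO from either batch alone.

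With the expression limit raised to 1 UMI per well, expressed members were 22 and 24 in the HEK293T LAST-seq cell libraries, 23 in the 15 pg RNA, 14 in the LAST-seq lysate, 30 in CEL-seq2 replicate 2, 14 in the CEL-seq2 lysate, 11 and 15 in WT and 9 and 16 in KO. With wells thinned to 18022 UMIs, 25 were expressed in HEK293T replicate 2, 14 in WT batch 2, and 16 and 18 in KO.

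Whether the eHAP1 batch numbers pair the genotypes could not be judged: the correlation of batch deviations was -0.001 over 9195 genes, whose batch differences had been evened. With batch as a replicate block, edgeR called 6 members higher and 5 lower in KO.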
